A study of Mus musculus with 15 samples.

Results

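The genes described here are known transcriptional targets of the tumour suppressor p53, measured in mouse mammary tumour spheres given 1 of 4 signalling inhibitors. The list of 31 genes covers the feedback regulators of p53, death receptors and other apoptosis genes, growth arrest genes, DNA repair genes and stress response genes. CDK inhibitors and BCL2 family members were left out of it. A gene was taken where a probe set was annotated to it alone, and its brightest probe set over the 15 arrays was used. That gave 30 genes of the 18193 with a probe set of their own, and Gdf15 was not analysed here. Of the 30, 29 were bright enough to be tested, among 11458 genes tested in all. The remaining one, Steap3, which encodes a metalloreductase, lay below the median signal of all 15 arrays, with log2 signals from 3.64 to 5.61.

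The tumour cells came from MMTV-PyMT mice of the FVB/N strain, in which the polyoma middle T oncogene is driven by the mouse mammary tumour virus promoter, a promoter active mainly in mammary epithelium. Primary tumour cells grew as mammospheres, which are floating spheres of cells, without serum and with EGF, FGF and B27. The spheres received vehicle, DAPT, U0126, TAE226 or PP2 for 2 days after 10 days of growth, with 3 arrays in each of the 5 groups, and all 5 groups share the strain, the transgene and the culture. DAPT blocks the release of the active part of Notch, U0126 blocks the kinase MEK1 upstream of ERK, TAE226 targets FAK, the focal adhesion kinase, and PP2 is a Src kinase inhibitor. The design asks how each inhibitor alters gene expression. The sources used here give neither the doses nor the age of the mice. The labels call the arrays of a group biological replicates but do not say that they came from separate mice or cultures, so the spread behind each p-value is that between these samples, which may be partly technical.

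The p53 protein is a transcription factor that is kept scarce in unstressed cells because the ubiquitin ligase Mdm2 marks it for degradation. DNA damage, oncogene activity or ribosome stress frees p53 from Mdm2, and it then binds a paired DNA element near its targets and raises their transcription. The targets halt the cell cycle, repair DNA or start apoptosis, and some of them, Mdm2 among them, act back on p53. Many of them also answer to other factors, such as FOXO proteins, the integrated stress response or growth factor signals. Neither p53 protein nor its binding to DNA was measured, and the level of Trp53, the gene for p53, was not analysed here.

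All 8 epithelial markers examined, keratins and adhesion genes among them, lay above the array median on all 15 arrays. None of 7 fibroblast, 5 endothelial and 6 leukocyte markers did so. Of these, 5 fibroblast markers (Col1a1 among them), 4 endothelial markers (Pecam1 among them) and 2 leukocyte markers (Ptprc and Itgax) lay below it on every array. Others exceeded it on some arrays, Csf1r on 11, Adgre1 on 7, Kdr on 6, Cd68 on 5, Col1a2 on 4, Pdgfra on 2 and Cd3e on 1. Adgre1, a leukocyte marker, rose by 0.94 under PP2 (limma, adjusted p = 0.00679). The other 2 leukocyte markers tested did not pass there, Cd68 at −0.68 (adjusted p = 0.0545) and Csf1r at 0.04. When each array was set to its own median, Cd68 was called lower under PP2 and Adgre1 higher. The summed signal of the epithelial markers was 73510 to 75925 under vehicle, 65442 to 67239 under DAPT, 77091 to 86829 under U0126, 74837 to 83984 under TAE226 and 72015 to 74729 under PP2. The ratio of the 3′ to the 5′ actin probe sets, a sign of RNA quality, was 1.42 ± 0.06 under vehicle, 1.35 ± 0.07 under DAPT, 1.28 ± 0.07 under U0126, 1.33 ± 0.07 under TAE226 and 1.57 ± 0.04 under PP2 (SD, n = 3 arrays each). Array medians ran from 66 to 91 signal units. The part of these differences in the results was not tested, and in such bulk RNA fewer cells of a type and less RNA per cell cannot be told apart.

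The p53 element consists of 10-base units, each made of 3 purines, a core that starts with C, ends with G and has A or T in between, and 3 pyrimidines, and a full element holds a pair of units up to 13 bases apart. RefSeq promoter windows (build GRCm38.p6, 250 bases before to 50 after a gene's start) were at hand for 24 of the genes, with 34 windows in all. An exact unit was found in 9 of the 34 windows (26.5%), which belong to 8 genes, beside 2742 of all 32817 windows (8.36%). A pair with at most 2 mismatches and both cores kept was found in 2 windows (5.88%), beside 696 of all windows (2.12%). The unit reads the same on both strands, so one search covered both. The sequences below are those of the genes with large changes whose window held an exact unit or a pair, printed on the gene's strand with the units in capitals and up to 60 bases on each side.
Mdm2, chr10:117710875-117711004, minus strand, unit starting 186 bases before the gene's start: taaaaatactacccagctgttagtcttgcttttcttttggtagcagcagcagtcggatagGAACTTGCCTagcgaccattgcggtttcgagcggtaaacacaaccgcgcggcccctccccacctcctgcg
Aen, chr7:78895877-78896006, plus strand, unit starting 121 bases before: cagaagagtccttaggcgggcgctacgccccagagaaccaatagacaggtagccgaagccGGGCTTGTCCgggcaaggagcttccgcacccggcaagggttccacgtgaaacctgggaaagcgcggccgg
Gtse1, chr15:85859885-85859975, plus strand, pair with 1 mismatch and no gap, starting 1 base before: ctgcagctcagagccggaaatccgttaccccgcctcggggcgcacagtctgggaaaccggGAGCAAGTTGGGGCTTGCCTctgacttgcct
Polk, chr13:96519349-96519437, minus strand, unit starting 231 bases before: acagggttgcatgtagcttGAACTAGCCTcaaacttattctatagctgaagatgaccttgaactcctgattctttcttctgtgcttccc
Sesn1, chr10:41887193-41887335, plus strand, pair with 2 mismatches and a gap of 3 bases, starting 186 bases before: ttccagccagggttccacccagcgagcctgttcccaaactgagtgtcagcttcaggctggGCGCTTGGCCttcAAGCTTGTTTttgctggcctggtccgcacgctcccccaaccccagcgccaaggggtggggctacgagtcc
Aen, Gtse1, Polk and Sesn1 had more than 1 start with a window, and each position above counts from the start of the window printed. The other windows of Gtse1, Polk (chr13:96542530-96542829, upstream) and Sesn1 (chr10:41810324-41810623, upstream) held neither an exact unit nor a pair. The other window of Aen held the same unit. A match is a description of letters only, and the lack of one says nothing of p53 at that gene, since the window leaves out introns, where the well known elements of Mdm2 lie.

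More of the targets rose than fell under TAE226 and under U0126. Under TAE226, 15 of the 29 genes rose, where 51.7% of the targets compares with 15.0% of all genes tested, and 1 fell, where all genes gave 15.9%. Their median log2 fold change was 0.29, beside 0.02 over all genes. Under U0126, 11 rose (37.9%, all genes 19.4%) and 0 fell by limma's test, where all genes gave 21.3%. At an unadjusted p under 0.05, however, 2 targets were lower, where all genes gave 25.1%. The median was 0.21, beside 0.00 over all genes.

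The other inhibitors gave calls in both directions. Under DAPT, 6 targets rose (20.7%, all genes 16.8%) and 5 fell (17.2%, all genes 17.5%), both shares near those of all genes, and the median was 0.03 beside 0.02. Under PP2, 4 rose (13.8%, all genes 25.9%), 10 fell (34.5%, all genes 26.9%) and 15 were not called, and the median was −0.04 beside 0.02. With the mean over all probe sets of a gene, the median of the targets under PP2 was 0.02. These comparisons share the vehicle arrays and are therefore not independent of one another.

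The counts depend on how the arrays are scaled. The deposited signals share a trimmed mean but not a median, and setting each array to its own median shifted every log2 fold change by −0.13 under DAPT, −0.08 under U0126, −0.25 under TAE226 and −0.22 under PP2. With that centring 8 targets rose (27.6%, all genes 10.5%) and 1 fell (3.45%, all genes 21.2%) under U0126. Under TAE226, 6 rose (20.7%, all genes 3.69%) and 1 fell (3.45%, all genes 37.2%), so on this scale fewer targets rose under TAE226 than under U0126. Under DAPT, 2 rose (6.90%, all genes 6.0%) and 7 fell (24.1%, all genes 21.3%), again near the shares of all genes. Under PP2, 1 rose (3.45%, all genes 10.5%) and 15 fell (51.7%, all genes 38.1%). The centred medians of the targets were 0.04 under TAE226, 0.13 under U0126, −0.10 under DAPT and −0.26 under PP2. The gap between the targets' median and that of all genes was 0.28 under TAE226, 0.21 under U0126, 0.02 under DAPT and −0.05 under PP2. Centring shifts every gene alike and so cannot change this gap, which is therefore no check on the scaling. An F-test over the 5 groups called 25 of the 29 targets, beside 72.9% of all genes, and left out Ppm1d, Pidd1, Triap1 and Rrm2b. The group means of a target spanned a median of 0.68 on the log2 scale, beside 0.52 over all genes.

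**Figure D1:**
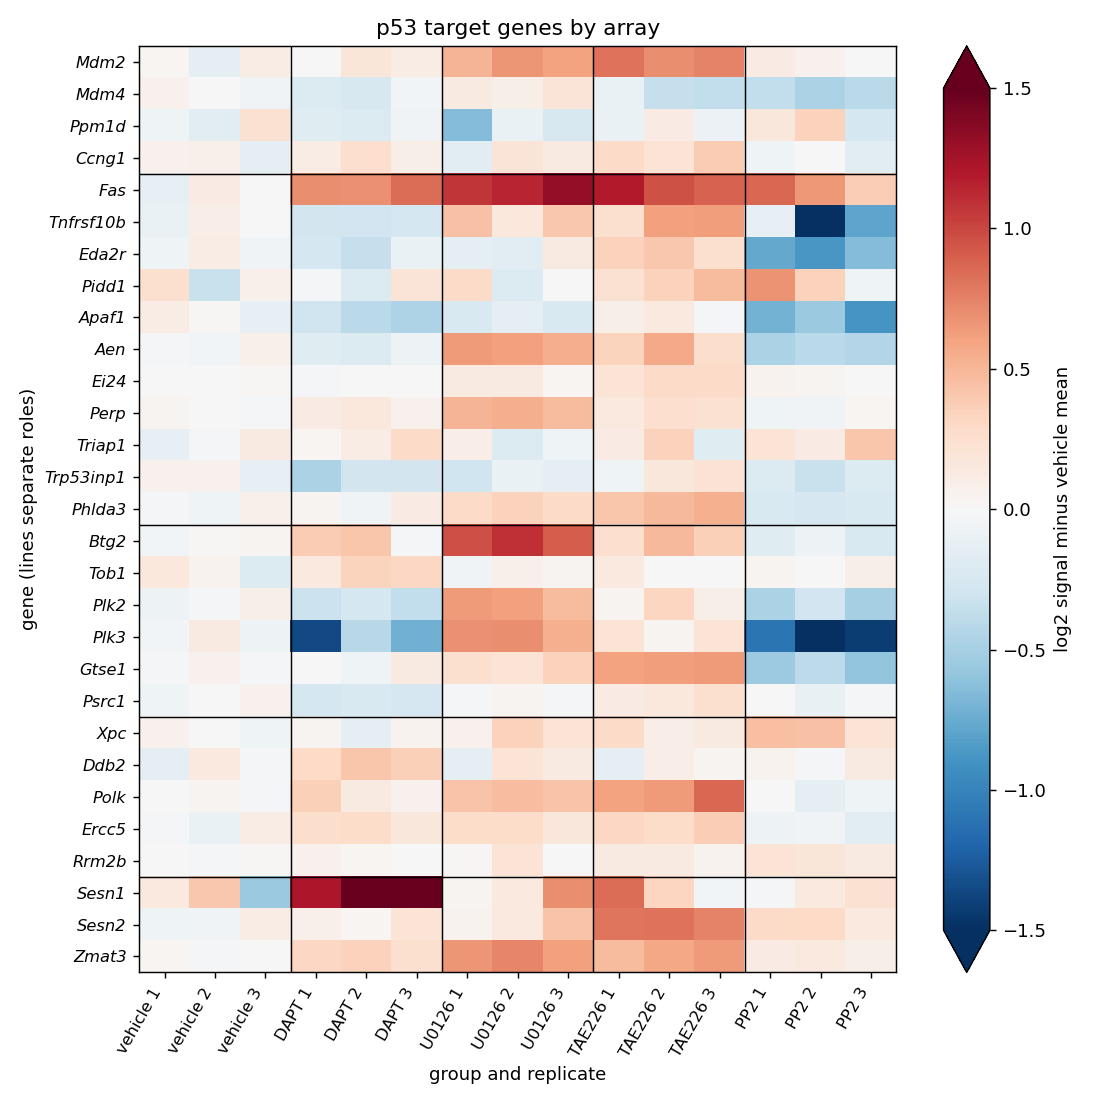
Log2 signal of each of the 29 targets (rows, with lines between the roles) on each of the 15 arrays (columns, by group and replicate), as the difference from the vehicle mean of that gene. Red is higher and blue lower, with the colour scale ending at 1.5 on either side, and on this deposited scale the TAE226 columns are red for most rows while Sesn1 is red mainly under DAPT and Plk3 is blue under PP2.

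The order of the group means also turns with the scaling. On the deposited scale TAE226 was the highest of the 5 groups for 14 of the 29 targets (all genes 13.8%), U0126 for 8 (all genes 23.5%) and vehicle for 0 (all genes 19.3%). With median centring U0126 was highest for 12 (all genes 25.9%), TAE226 for 7 (all genes 4.81%) and vehicle for 5 (all genes 37.6%). PP2 was the lowest group for 14 targets as deposited (all genes 28.3%) and for 18 with centring (all genes 35.5%). These orders come from the means alone, and neighbouring groups often did not differ beyond their spread.

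**Figure D2:**
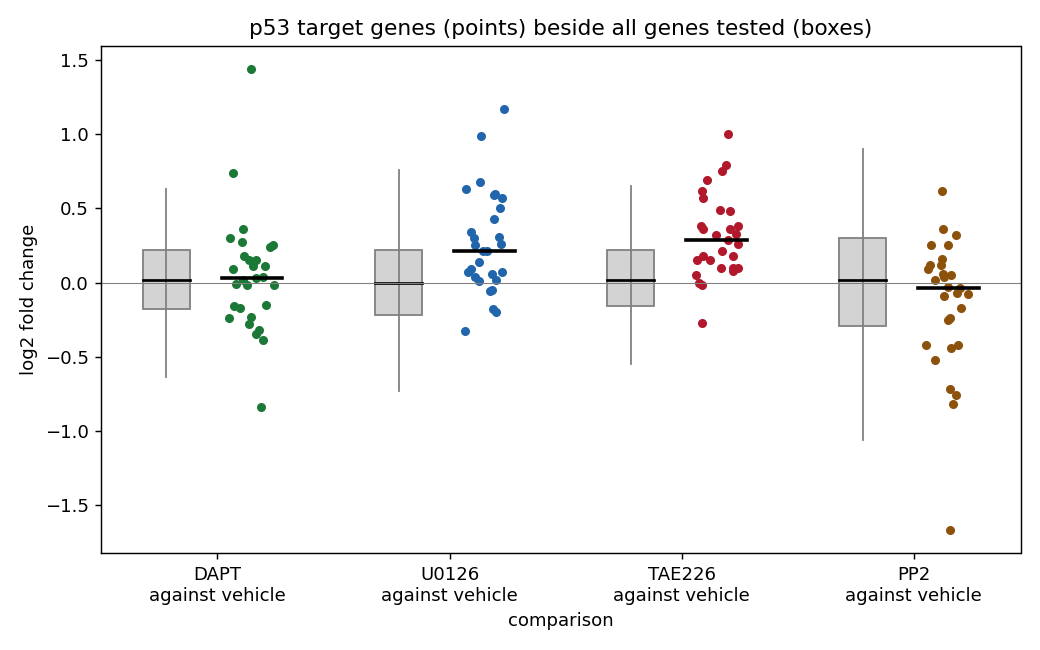
Log2 fold changes of the 29 targets (points, with their median as a thick line) in each comparison against vehicle, beside all 11458 genes tested, whose grey box runs from the 25th to the 75th percentile with a line at the median and thin lines to the 5th and 95th. The median of the targets lies at 0.29 under TAE226 and 0.21 under U0126, and at 0.03 and −0.04 under DAPT and PP2.

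Among the genes that act on p53 itself, Mdm2 rose under U0126 and TAE226. Mdm2 read 11.01, 10.85 and 11.09 on the vehicle arrays, 10.97, 11.16 and 11.09 under DAPT, 11.49, 11.64 and 11.58 under U0126, 11.80, 11.68 and 11.72 under TAE226, and 11.10, 11.05 and 10.97 under PP2. All U0126 and all TAE226 arrays lay above all vehicle arrays, and the DAPT and PP2 arrays overlapped them. Mdm2 rose by 0.75 (SE 0.07, adjusted p = 4.26e-07) under TAE226, 1.68-fold, and rose by 0.59 (SE 0.07, adjusted p = 3.28e-06) under U0126. Its fold change was 0.09 under DAPT and 0.05 under PP2, neither past the test. A second probe set gave 0.62 and 0.84 under U0126 and TAE226 but fell by 0.40 under PP2, and the third, above the array median on 4 arrays, gave 1.07 there, so the probe sets disagree on PP2. With the third alone, Mdm2 did not pass under U0126 (0.87, adjusted p = 0.0761).

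Mdm4, a relative of Mdm2 that masks the activating part of p53, was the one target that fell under TAE226. Mdm4 read 9.90, 9.84 and 9.79 on the vehicle arrays, 9.63, 9.60 and 9.80 under DAPT, 9.98, 9.93 and 10.03 under U0126, 9.74, 9.50 and 9.47 under TAE226, and 9.47, 9.36 and 9.44 under PP2. The TAE226 and PP2 arrays all lay below the vehicle arrays. It fell by 0.27 (SE 0.08, adjusted p = 0.0138) under TAE226 and fell by 0.42 (SE 0.08, adjusted p = 2.43e-04) under PP2. The TAE226 call was lost without vehicle replicate 1, TAE226 replicate 2 or TAE226 replicate 3. A second probe set of Mdm4, above the array median on all 15 arrays, gave −0.29 under TAE226, which did not pass, and fell by 0.50 under PP2. The remaining one tested, above the array median on 5 arrays, went the other way under TAE226 and PP2, at 1.18 and 1.05. Ccng1, or cyclin G1, which recruits a phosphatase to Mdm2, rose by 0.29 (SE 0.09, adjusted p = 0.0156) under TAE226, where the arrays did not overlap those of vehicle, but at 0.04 with median centring it did not pass. Other probe sets of Ccng1 rose under TAE226 too, by 0.42 and 0.38, but fell under PP2, by 0.26 and 0.46. The former also rose under DAPT, by 0.22, and the latter under U0126, by 0.48, where the chosen one did not pass. Ppm1d, a phosphatase that switches off p53 signalling, passed in no comparison against vehicle, with values from −0.33 to 0.09, though a second probe set of it rose by 0.33 under TAE226. With median centring Ppm1d fell by 0.41 under U0126 (adjusted p = 0.0481).

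The death receptor Fas rose under all 4 inhibitors. Fas read 6.88, 7.12 and 7.01 on the vehicle arrays, 7.70, 7.68 and 7.84 under DAPT, 8.07, 8.14 and 8.32 under U0126, 8.19, 7.95 and 7.88 under TAE226, and 7.86, 7.65 and 7.37 under PP2. Every treated array lay above every vehicle array, and the U0126 arrays were mostly the highest. Fas rose by 1.17 (SE 0.14, adjusted p = 4.00e-06) under U0126, which is 2.25-fold. Under TAE226 its mean rose from 7.00 to 8.00 (SE of the difference 0.14, adjusted p = 3.84e-05). It rose by 0.74 (SE 0.14, adjusted p = 6.01e-04) under DAPT and rose by 0.62 (SE 0.14, adjusted p = 0.00123) under PP2. With median centring the changes were 1.09, 0.75, 0.60 and 0.40 in the same order, and all 4 still passed. Fas had 1 probe set.

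Tnfrsf10b, a receptor for the death ligand TRAIL, was low throughout. Tnfrsf10b read 6.67, 6.87 and 6.77 on the vehicle arrays, 6.50, 6.48 and 6.51 under DAPT, 7.21, 6.93 and 7.18 under U0126, 7.01, 7.39 and 7.40 under TAE226, and 6.65, 5.24 and 5.98 under PP2. It lay above the array median on 13 arrays, and 2 of the 3 PP2 arrays were below it. Tnfrsf10b fell by 0.82 (SE 0.27, adjusted p = 0.0165) under PP2, and the call was lost without vehicle replicate 2 (−0.76, adjusted p = 0.0506) or PP2 replicate 2 (−0.46, adjusted p = 0.0986), and when the vehicle and PP2 arrays alone were fitted (−0.82, adjusted p = 0.0780). A second probe set, above the array median on 10 arrays, fell by 1.41 under PP2. The values under U0126 and TAE226, 0.34 and 0.49 for the chosen probe set, did not pass.

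Eda2r, a receptor of the ectodysplasin family, fell under PP2. Eda2r read 9.50, 9.67 and 9.51 on the vehicle arrays, 9.30, 9.22 and 9.46 under DAPT, 9.42, 9.39 and 9.69 under U0126, 9.91, 9.96 and 9.80 under TAE226, and 8.79, 8.69 and 8.91 under PP2. The PP2 arrays were the lowest and the TAE226 arrays the highest, and neither overlapped vehicle. Eda2r fell by 0.76 (SE 0.09, adjusted p = 3.53e-06) under PP2 and rose by 0.33 (SE 0.09, adjusted p = 0.012) under TAE226. The TAE226 call was lost without TAE226 replicate 2 (adjusted p = 0.0514), and with median centring its value was 0.08. With that centring Eda2r fell by 0.36 under DAPT (adjusted p = 0.0471).

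Apaf1, the scaffold of the apoptosome that activates caspases, fell under PP2 and DAPT. Apaf1 read 9.78, 9.69 and 9.55 on the vehicle arrays, 9.37, 9.27 and 9.21 under DAPT, 9.44, 9.54 and 9.44 under U0126, 9.76, 9.82 and 9.65 under TAE226, and 8.96, 9.11 and 8.78 under PP2. The DAPT, U0126 and PP2 arrays all lay below the vehicle arrays, with PP2 lowest. Apaf1 fell by 0.72 (SE 0.09, adjusted p = 3.15e-06) under PP2 and fell by 0.39 (SE 0.09, adjusted p = 0.00258) under DAPT, while its value under U0126, −0.20, did not pass (adjusted p = 0.0853). A probe set of Apaf1 above the array median on 6 arrays gave 0.10 under DAPT, which did not pass, and the mean of both was −0.15 there (adjusted p = 0.462).

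Aen, an exonuclease that degrades DNA during apoptosis and whose promoter unit is printed above, differed in direction between inhibitors. Aen read 10.66, 10.65 and 10.77 on the vehicle arrays, 10.51, 10.48 and 10.61 under DAPT, 11.33, 11.31 and 11.23 under U0126, 11.02, 11.26 and 10.95 under TAE226, and 10.22, 10.29 and 10.25 under PP2. The U0126 and TAE226 arrays lay above vehicle and the PP2 and DAPT arrays below it, without overlap. Aen rose by 0.60 (SE 0.07, adjusted p = 4.06e-06) under U0126 and rose by 0.38 (SE 0.07, adjusted p = 5.60e-04) under TAE226, and it fell by 0.44 (SE 0.07, adjusted p = 6.83e-05) under PP2. The TAE226 value was 0.13 with median centring and did not pass. With that centring Aen fell by 0.29 under DAPT (adjusted p = 0.0452). Another probe set of Aen rose by 0.52 under U0126 and fell by 0.56 under PP2. A further one gave −0.04 under U0126 and 0.09 under PP2, neither past the test, and the mean over all its probe sets passed in neither (adjusted p = 0.0686 and 0.157).

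Perp, a desmosome protein of epithelia that also takes part in apoptosis, rose under U0126 and TAE226. Perp read 13.54, 13.50 and 13.47 on the vehicle arrays, 13.62, 13.66 and 13.57 under DAPT, 14.01, 14.04 and 13.98 under U0126, 13.65, 13.75 and 13.73 under TAE226, and 13.44, 13.45 and 13.53 under PP2. The U0126 arrays were the highest and lay clear of all others. Perp rose by 0.50 (SE 0.05, adjusted p = 2.66e-07) under U0126. It rose by 0.21 (SE 0.05, adjusted p = 0.00316) under TAE226, where median centring turned the value to −0.05. With that centring Perp fell by 0.25 under PP2 (adjusted p = 0.0475).

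The other apoptosis genes had no called change of 0.5 or more. Phlda3, which competes with Akt for membrane lipid, rose by 0.48 (SE 0.05, adjusted p = 4.23e-06) under TAE226, rose by 0.31 (SE 0.05, adjusted p = 2.24e-04) under U0126 and fell by 0.24 (SE 0.05, adjusted p = 0.00153) under PP2, and only the PP2 call remained with median centring. Trp53inp1, a stress protein that assists p53, fell by 0.35 (SE 0.08, adjusted p = 0.0038) under DAPT and fell by 0.25 (SE 0.08, adjusted p = 0.0166) under PP2. A second probe set of Trp53inp1 rose by 0.33, 1.18 and 0.45 under U0126, TAE226 and PP2, so the direction under PP2 depends on the probe set. Its 0.02 under DAPT did not pass, so the fall there rests on the chosen probe set. Ei24, a protein of the endoplasmic reticulum, rose by 0.26 (SE 0.05, adjusted p = 3.22e-04) under TAE226, and its value with median centring was 0.01. Pidd1, the scaffold of the PIDDosome, and Triap1, an apoptosis inhibitor, passed in no comparison against vehicle, with values from −0.01 to 0.36 and from −0.05 to 0.25. Of the 11 genes of this role, 6 rose and 0 fell under TAE226 by limma's test, 4 rose and 0 fell under U0126, 1 rose and 2 fell under DAPT, and 1 rose and 6 fell under PP2. The shares of all genes, given above, were 15.0% and 15.9% under TAE226, 19.4% and 21.3% under U0126, 16.8% and 17.5% under DAPT, and 25.9% and 26.9% under PP2. With median centring 1 of the 11 rose under TAE226 and 3 under U0126, with 0 lower in either, 1 rose and 4 fell under DAPT, and 1 rose and 7 fell under PP2. All genes then gave 3.69% higher and 37.2% lower under TAE226, and 10.5% and 21.2% under U0126. They gave 6.0% and 21.3% under DAPT, and 10.5% and 38.1% under PP2. At an unadjusted p under 0.05 on the deposited scale, 0 of the 11 were lower under TAE226 (all genes 20.4%) and 2 under U0126 (all genes 25.1%).

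Of the growth arrest genes, Btg2, an antiproliferative protein that binds the deadenylase complex, stood out under U0126. Btg2 read 11.75, 11.81 and 11.83 on the vehicle arrays, 12.17, 12.21 and 11.76 under DAPT, 12.76, 12.89 and 12.70 under U0126, 12.04, 12.28 and 12.15 under TAE226, and 11.61, 11.71 and 11.56 under PP2. All U0126 arrays lay above all other arrays. Btg2 rose by 0.99 (SE 0.10, adjusted p = 3.76e-07) under U0126, 1.99-fold, and rose by 0.36 (SE 0.10, adjusted p = 0.00837) under TAE226, where it did not pass with median centring (0.11). With that centring Btg2 fell by 0.39 under PP2 (adjusted p = 0.0141). Its relative Tob1 rose by 0.27 (SE 0.08, adjusted p = 0.0153) under DAPT, with arrays that overlapped those of vehicle, and with median centring it did not pass (0.13). The other probe set of Btg2 also rose under DAPT, by 0.48, where the chosen one, at 0.25, did not pass.

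The polo-like kinases Plk2 and Plk3, stress-linked relatives of the mitotic kinase Plk1, were highest under U0126. Plk2 read 11.56, 11.62 and 11.73 on the vehicle arrays, 11.32, 11.38 and 11.27 under DAPT, 12.28, 12.25 and 12.11 under U0126, 11.68, 11.96 and 11.73 under TAE226, and 11.17, 11.35 and 11.14 under PP2. The U0126 arrays lay above vehicle and the DAPT and PP2 arrays below it, without overlap. Plk2 rose by 0.57 (SE 0.08, adjusted p = 1.60e-05) under U0126, fell by 0.32 (SE 0.08, adjusted p = 0.00442) under DAPT and fell by 0.42 (SE 0.08, adjusted p = 2.43e-04) under PP2. Its other probe set lay below the median of all 15 arrays, and averaged with it Plk2 passed in none of these (adjusted p = 0.273, 0.637 and 0.647). Plk3 read 8.14, 8.31 and 8.10 on the vehicle arrays, 6.83, 7.76 and 7.46 under DAPT, 8.86, 8.88 and 8.71 under U0126, 8.38, 8.22 and 8.38 under TAE226, and 7.08, 5.70 and 6.76 under PP2. The PP2 and DAPT arrays all lay below vehicle and overlapped each other, PP2 replicate 2 was below its array's median, and all U0126 arrays were above vehicle. Plk3 fell by 1.67 (SE 0.27, adjusted p = 6.48e-05) under PP2 and fell by 0.84 (SE 0.27, adjusted p = 0.024) under DAPT, and it had a log2 fold change of 0.63 (SE 0.27, adjusted p = 0.0723) under U0126. The DAPT call was lost without vehicle replicate 2 (adjusted p = 0.0723) or DAPT replicate 1 (adjusted p = 0.125).

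Gtse1, which escorts p53 out of the nucleus in G2 phase and whose start holds the promoter pair above, rose under TAE226 and fell under PP2. Gtse1 read 9.14, 9.22 and 9.13 on the vehicle arrays, 9.16, 9.09 and 9.30 under DAPT, 9.40, 9.36 and 9.51 under U0126, 9.76, 9.79 and 9.80 under TAE226, and 8.61, 8.77 and 8.57 under PP2. The TAE226 arrays were the highest, the U0126 arrays also lay above vehicle, and the PP2 arrays were the lowest. Gtse1 rose by 0.62 (SE 0.08, adjusted p = 1.19e-05) under TAE226, rose by 0.26 (SE 0.08, adjusted p = 0.0122) under U0126 and fell by 0.52 (SE 0.08, adjusted p = 2.52e-05) under PP2. The U0126 call was lost without U0126 replicate 3 (adjusted p = 0.0582) and with median centring (0.17, adjusted p = 0.229). Psrc1, a protein of the mitotic spindle, fell by 0.24 (SE 0.05, adjusted p = 0.00143) under DAPT and rose by 0.18 (SE 0.05, adjusted p = 0.0133) under TAE226, and its TAE226 value was −0.07 with median centring. With that centring Psrc1 fell by 0.26 under PP2 (adjusted p = 0.0391). Another probe set of Psrc1 fell by 0.48 under DAPT, and its 0.03 under TAE226 did not pass. A further one rose by 0.76 under TAE226, and its −0.03 under DAPT did not pass.

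Of the 5 DNA repair genes, the translesion polymerase Polk had the largest changes. Polk read 10.43, 10.47 and 10.40 on the vehicle arrays, 10.79, 10.56 and 10.50 under DAPT, 10.86, 10.89 and 10.86 under U0126, 11.03, 11.07 and 11.29 under TAE226, and 10.43, 10.28 and 10.36 under PP2. The TAE226 arrays were the highest and the U0126 arrays came next, both clear of vehicle, and the PP2 arrays overlapped it. Polk rose by 0.69 (SE 0.08, adjusted p = 3.86e-06) under TAE226 and rose by 0.43 (SE 0.08, adjusted p = 2.48e-04) under U0126. With median centring it fell by 0.30 under PP2 (adjusted p = 0.0285). The other probe set of Polk rose by 0.56 under TAE226 and by 0.49 under DAPT, where the chosen one did not pass, and its 0.30 under U0126 did not pass. Ercc5, an endonuclease of nucleotide excision repair, rose by 0.32 (SE 0.06, adjusted p = 6.43e-04) under TAE226, rose by 0.25 (SE 0.06, adjusted p = 0.00351) under U0126 and rose by 0.24 (SE 0.06, adjusted p = 0.00605) under DAPT, and none of these calls remained with median centring. On that scale Ercc5 fell by 0.31 under PP2 (adjusted p = 0.00689).

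Damage recognition genes gave single changes. Ddb2 rose by 0.36 (SE 0.10, adjusted p = 0.0101) under DAPT, though another probe set of it gave 0.05 there and fell by 0.22 under TAE226. Xpc rose by 0.36 (SE 0.10, adjusted p = 0.00429) under PP2. Rrm2b, a subunit of ribonucleotide reductase, rose by 0.16 (SE 0.07, adjusted p = 0.0442) under PP2. Other probe sets of Rrm2b did not pass under PP2, and a pair of them rose under TAE226, by 0.89 and 0.61. With median centring none of these 3 genes passed, at 0.23, 0.15 and −0.05.

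The sestrins, which restrain the growth kinase complex mTORC1 under stress,, Sesn1 and Sesn2, are taken in turn. Sesn1 read 9.82, 10.07 and 9.11 on the vehicle arrays, 10.88, 11.17 and 11.27 under DAPT, 9.71, 9.82 and 10.37 under U0126, 10.51, 9.99 and 9.63 under TAE226, and 9.65, 9.82 and 9.90 under PP2. The DAPT arrays lay above all others. Sesn1 rose by 1.44 (SE 0.23, adjusted p = 1.41e-04) under DAPT, 2.72-fold, and its values under the other inhibitors, from 0.12 to 0.38, did not pass. Other probe sets of Sesn1 rose under DAPT too, by 1.17 and 1.43. The latter also rose under U0126, TAE226 and PP2, by 0.35, 0.28 and 0.51, and the former under PP2, by 0.33. Directly compared, Sesn1 was higher under DAPT than under U0126, TAE226 and PP2, by 1.14, 1.07 and 1.32 (adjusted p = 7.72e-04, 0.00294 and 2.52e-04).

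Sesn2 read 9.44, 9.46 and 9.62 on the vehicle arrays, 9.59, 9.54 and 9.71 under DAPT, 9.56, 9.66 and 9.94 under U0126, 10.31, 10.33 and 10.25 under TAE226, and 9.80, 9.81 and 9.66 under PP2. The TAE226 arrays were clear of all others. Sesn2 rose by 0.79 (SE 0.09, adjusted p = 4.37e-06) under TAE226 and rose by 0.25 (SE 0.09, adjusted p = 0.0256) under PP2, and the PP2 call was lost without any 1 of vehicle replicates 1 and 2 and PP2 replicates 1 and 2, and with median centring (0.03, adjusted p = 0.845). Directly compared, Sesn2 was higher under TAE226 than under PP2 by 0.54, and the differences of DAPT and U0126 from TAE226 were −0.68 and −0.58, all past the test. A second probe set of Sesn2, above the array median on all 15 arrays too, gave 0.09 under TAE226 and −0.24 under PP2 and passed in no comparison, so the change rests on 1 probe set.

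Zmat3, an RNA-binding protein that regulates splicing, rose under 3 inhibitors. Zmat3 read 11.21, 11.15 and 11.17 on the vehicle arrays, 11.49, 11.53 and 11.42 under DAPT, 11.84, 11.91 and 11.80 under U0126, 11.66, 11.76 and 11.82 under TAE226, and 11.30, 11.33 and 11.27 under PP2. All treated arrays lay above all vehicle arrays. The mean was highest under U0126, whose arrays overlapped those of TAE226. Zmat3 rose by 0.68 (SE 0.05, adjusted p = 2.71e-08) under U0126, rose by 0.57 (SE 0.05, adjusted p = 5.28e-07) under TAE226 and rose by 0.30 (SE 0.05, adjusted p = 2.85e-04) under DAPT. The PP2 value, 0.12, did not pass (adjusted p = 0.0592), and with median centring the DAPT value, 0.17, did not either.

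**Figure D3:**
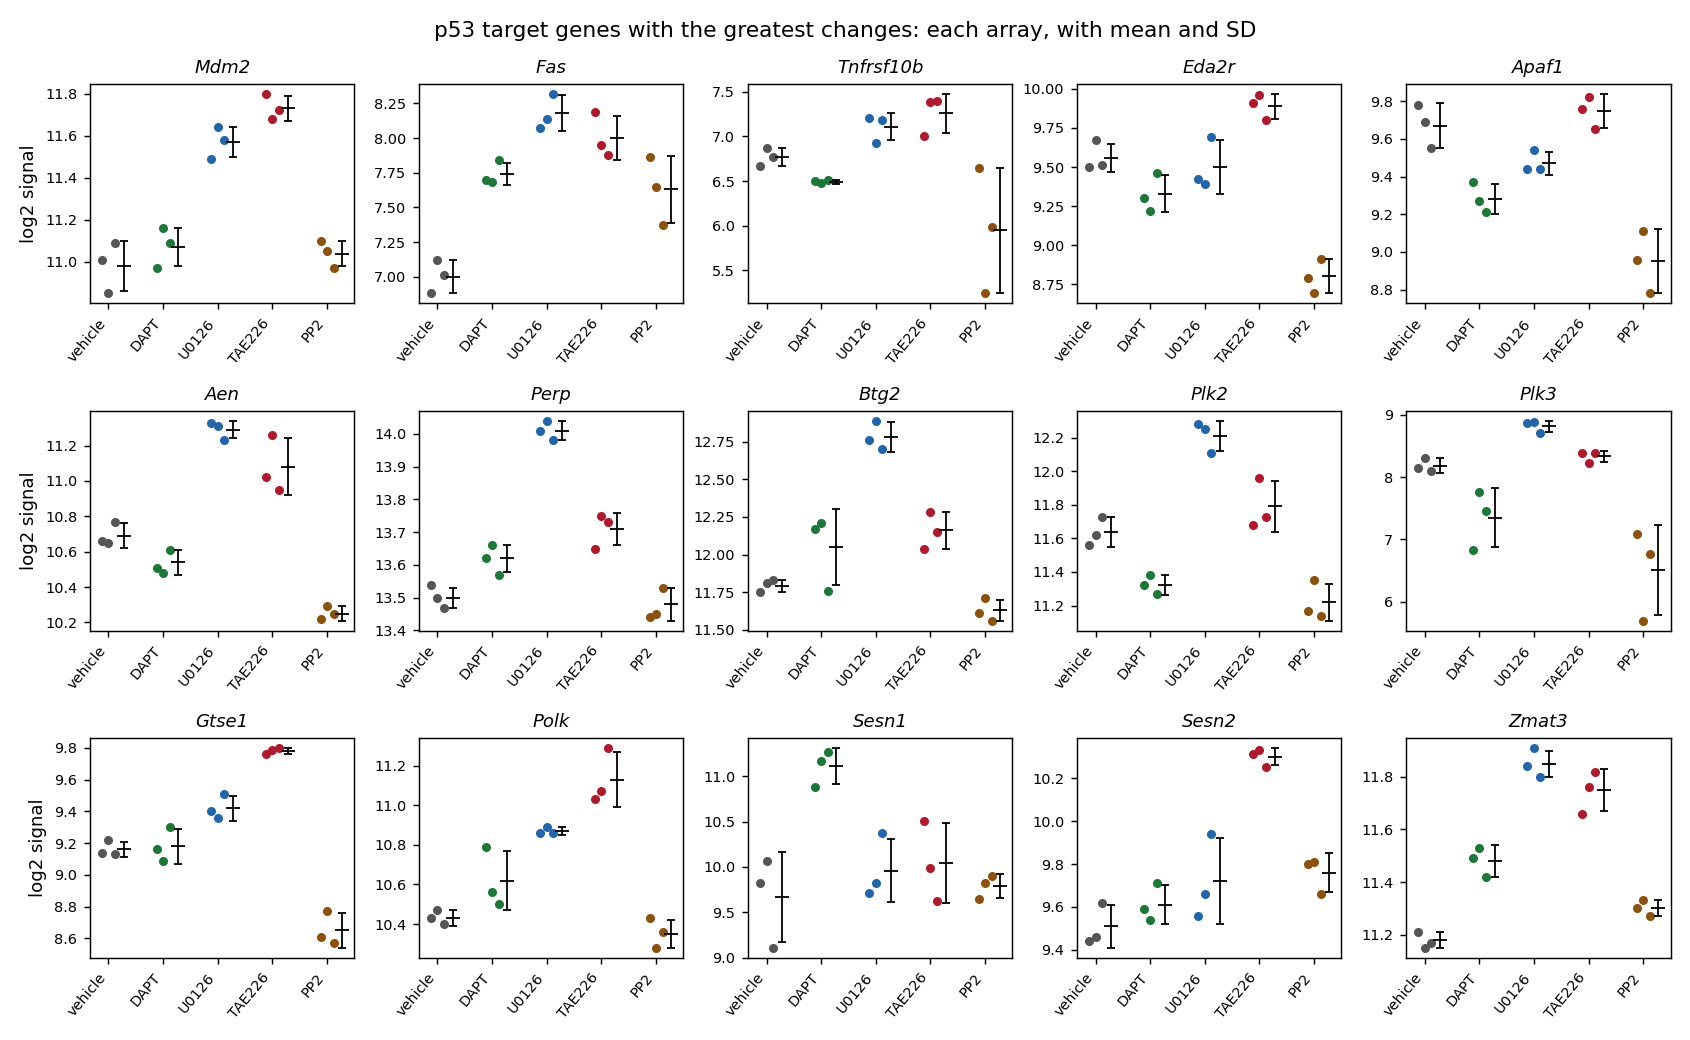
Log2 signal of the 15 targets that passed the test with a log2 fold change of at least 0.5 in at least 1 comparison against vehicle, 1 panel each with its own axis. Points are the 3 arrays of a group, and the bar beside them is their mean with the SD; Fas lies above vehicle in all 4 treated groups, and Sesn1 stands apart under DAPT.

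The inhibitors were also compared with each other. The vehicle means play no part in these differences, but the vehicle arrays are in the same fit and share in its estimate of the spread. TAE226 was higher than PP2 for 20 of the 29 targets, where all genes gave 23.3%, and lower for 0 by limma's test, where all genes gave 20.2%. At an unadjusted p under 0.05 it was also lower for 0, where all genes gave 23.4%. With median centring 15 were higher (all genes 15.7%) and 0 lower (all genes 17.0%), with 0 lower at an unadjusted p under 0.05. The median difference of the targets was 0.38, beside 0.01 over all genes. Plk3 differed by 1.81 (SE 0.27, adjusted p = 3.90e-05), Tnfrsf10b by 1.31, Gtse1 by 1.13 and Eda2r by 1.09.

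U0126 also stood above PP2. It was higher for 16 targets (all genes 27.9%) and lower for 2 (all genes 27.7%), with a median difference of 0.51 beside −0.02. Both lower genes, Ppm1d and Triap1, missed the threshold after median centring, which left 16 higher (all genes 32.2%) and 0 lower (all genes 15.7%), with 0 lower at an unadjusted p under 0.05. Plk3 differed by 2.30, Btg2 by 1.16, Aen by 1.04 and Plk2 by 0.99.

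DAPT against PP2 gave 16 targets higher (all genes 21.7%) and 2 lower (all genes 18.0%). With median centring these became 13 (all genes 21.0%) and 0 (all genes 9.17%), with 1 lower at an unadjusted p under 0.05. Sesn1 led them, and Gtse1 and Eda2r were both higher under DAPT, by 0.53 and 0.53. Both lower genes, Xpc and Psrc1, differed by −0.38 and −0.21. The actin ratio given above was highest under PP2, and its part in these differences was not tested.

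**Figure D4:**
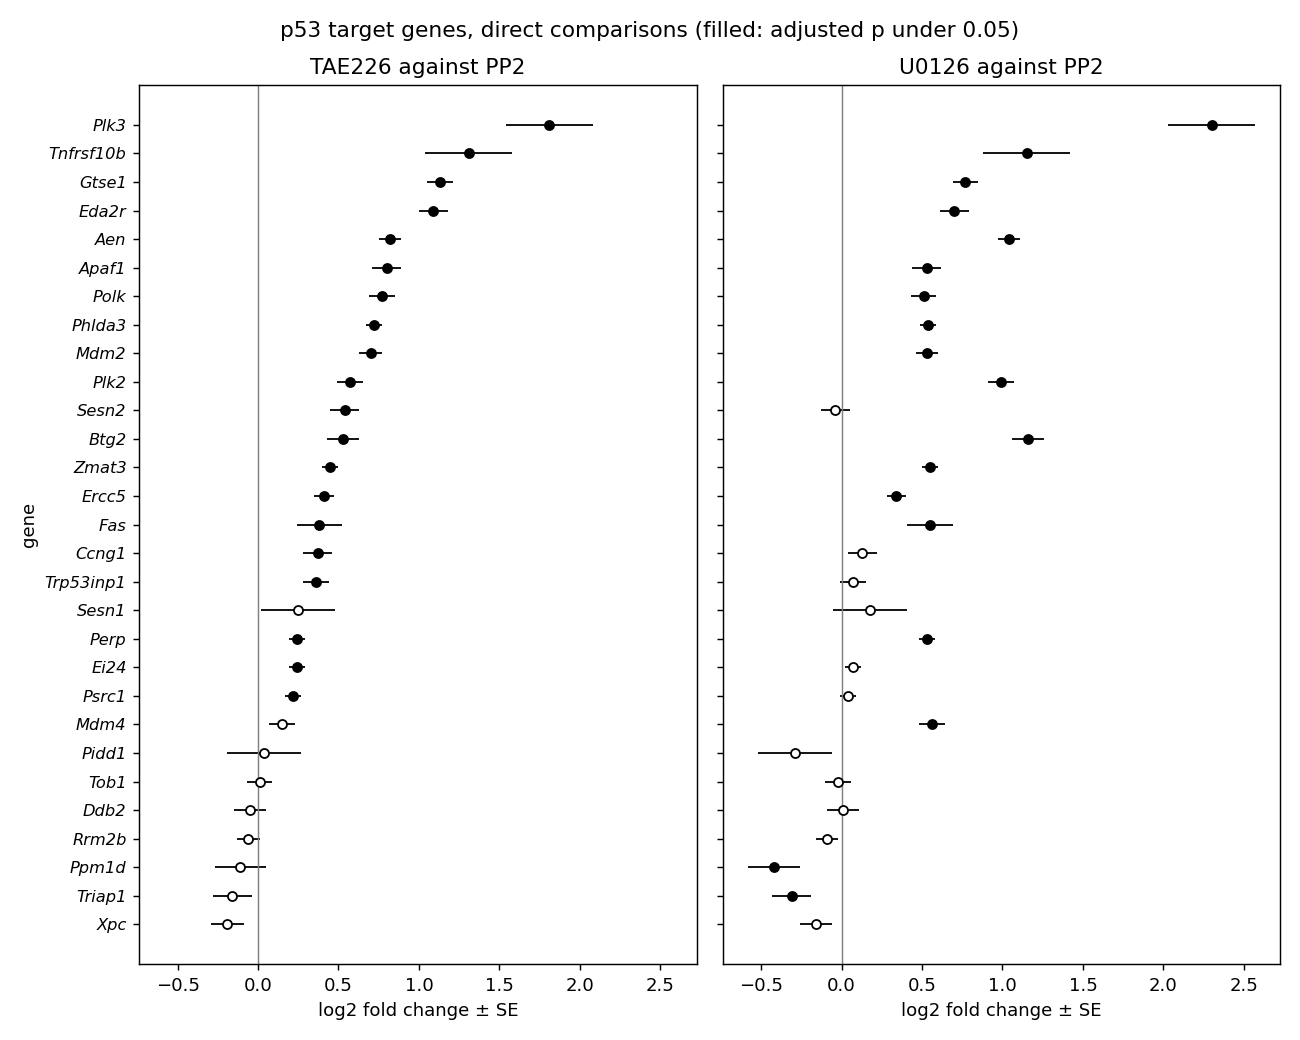
Log2 fold changes (points, with SE as bars) of the 29 targets for TAE226 over PP2 and for U0126 over PP2, ordered by the former. Filled points passed the test at an adjusted p under 0.05, and all 20 filled points of TAE226 over PP2 lie to the right of 0.

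DAPT stood below U0126 and TAE226 in most calls. Against U0126, DAPT was lower for 14 targets (all genes 21.6%) and higher for 3 (all genes 23.1%), or 13 (all genes 19.2%) and 1 (all genes 13.9%) with median centring. Aen, Btg2, Plk2 and Plk3 differed by −0.76, −0.74, −0.89 and −1.47 on the log2 scale (DAPT minus U0126). Without DAPT replicate 2 the 17 calls became 11. Against TAE226, DAPT was lower for 15 (all genes 11.2%) and higher for 2 (all genes 11.4%), Sesn1 and Ddb2, or 11 (all genes 4.79%) and 2 (all genes 13.0%) with median centring.

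U0126 and TAE226 differed in both directions. U0126 was higher for 5 targets (all genes 17.7%) and lower for 10 (all genes 19.4%), but with median centring it was higher for 6 (all genes 26.0%) and lower for 1 (all genes 6.76%), so the split turns with the scaling as that of all genes does. Without TAE226 replicate 3 the 15 calls became 9. Btg2 and Plk2 were higher under U0126, by 0.63 and 0.42, and Sesn2 was lower, at −0.58, and these calls passed under both scalings. The values of Mdm2, −0.16, and Fas, 0.17, did not pass (SE 0.07 and 0.14).

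The p53 targets left out of the list, CDK inhibitors and BCL2 family genes, give values to set beside it. Cdkn1a, the cell cycle inhibitor p21, fell by 0.79 under DAPT and 1.01 under PP2 and rose by 0.21 under U0126 and 0.30 under TAE226, and neither rise passed with median centring. Pmaip1, or Noxa, a proapoptotic BCL2 family protein, fell by 0.47 under DAPT and 0.90 under PP2 and rose by 0.74 under U0126 and 0.80 under TAE226. Bbc3, or Puma, of the same family, fell by 0.50 under U0126 and 0.32 under PP2. Bid and Bcl2l1, also of that family, rose by 0.66 and 0.59 under U0126 and by 0.37 and 0.27 under TAE226. Bcl2l1 rose under PP2 too, by 0.31. With median centring the rises of Bid and Bcl2l1 under TAE226 and of Bcl2l1 under PP2 did not pass, and Bid was called lower under PP2. Bax was not analysed here.

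Of 18 tested genes that regulate p53 or work beside it, 7 rose and 4 fell under DAPT, 2 rose and 6 fell under U0126, 3 rose and 4 fell under TAE226, and 5 rose and 8 fell under PP2. All genes gave 16.8% and 17.5% under DAPT, 19.4% and 21.3% under U0126, 15.0% and 15.9% under TAE226, and 25.9% and 26.9% under PP2. With median centring the counts were 3 and 6, 1 and 5, 1 and 10, and 1 and 9. All genes then gave 6.0% and 21.3%, 10.5% and 21.2%, 3.69% and 37.2%, and 10.5% and 38.1%. Several of these counts are near the shares of all genes, such as the 5 that rose under PP2 on the deposited scale. Trp63 and Trp73, which encode relatives of p53 that can bind the same element, rose by 1.14 and 1.38 under DAPT. Trp63 fell by 0.66 under U0126 and by 0.48 under TAE226 and under PP2. Hipk2, a kinase that phosphorylates p53, rose by 0.71, 0.32, 0.51 and 0.93 under DAPT, U0126, TAE226 and PP2, and Chek1, a DNA damage checkpoint kinase, fell by 0.63, 0.36, 0.54 and 1.12. With median centring the rise of Hipk2 under U0126 did not pass. Cdkn2a, whose locus encodes an inhibitor of Mdm2, rose by 0.71 under U0126 and 0.37 under DAPT, the latter not past the test with median centring.

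Several targets belong to other programmes, whose genes did not all move with them. Of 11 tested genes of the integrated stress response, which includes Sesn2, 8 fell under TAE226 (all genes 15.9%), Ddit3 by 1.44. Sesn2 was the 1 that rose there (all genes 15.0%). Of 11 FOXO targets, which include Sesn1, 8 rose (all genes 16.8%) and 1 fell (all genes 17.5%) under DAPT, and Fbxo32 rose by 1.34. With median centring 5 rose (all genes 6.0%) and 1 fell (all genes 21.3%). Sesn1 itself is counted among the FOXO targets that rose on both scales. Of 15 genes of G2/M phase and mitosis, all 15 fell under TAE226 (all genes 15.9%), Mki67 by 0.88, while Gtse1 rose. All 15 also fell under PP2 (all genes 26.9%), Bub1 by 1.77, where Gtse1 fell too. Of 9 immediate early genes, 6 fell (all genes 21.3%) and 2 rose (all genes 19.4%) under U0126, and Btg2 and Plk2 rose there. Egr1 fell by 3.11. Under PP2, 8 of these 9 fell (all genes 26.9%), Fos by 2.00, and Plk2 and Plk3 fell too.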

How the data were processed

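RNA from 15 mammosphere samples was hybridised to 1 Affymetrix Mouse430_2 array each, from 250 ng of total RNA per the labels' protocols. The deposited values are linear signal intensities made by the authors with Affymetrix Expression Console and MAS5, per the submitters' processing notes; the sources used here give no versions. On each array the mean after trimming 2% at each end was 500.

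Of 45101 probe sets, 34945 were annotated to 1 gene, 932 to several and 9160 to no listed gene, and 34741 were matched to current symbols by Entrez ID. Genes were tested where the brightest probe set exceeded the array's median on 3 or more of 15 arrays. The log2 of the deposited intensity was fitted in R 4.3.3 by limma 3.58.1 with a mean for each group and an intensity trend, adding no pseudocount. The 10 residual and 6.10 prior degrees of freedom gave a median SE of 0.0975 for a log2 fold change, and the number of arrays limits the precision. P-values are two-sided limma p-values, adjusted by Benjamini and Hochberg over all 11458 genes tested within each of 10 contrasts, with 0.05 as the threshold. A change is called a rise or a fall only past it. The fit was tested on simulated data.

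Values by array are given for each target called with a log2 fold change of at least 0.5 in a comparison against vehicle. From the other gene lists, Cdkn1a, Bbc3 and Pmaip1 and a few called genes with large changes are named. The targets and all lists were chosen with earlier results of these data known. The array numbers in the labels run in order of the groups, so array order and group cannot be told apart. Alternatives changed the scaling, pseudocount, filter, probe set, variance model, samples fitted, replicate block and single arrays.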

Additional observations from a re-analysis of the deposited data

How the results depend on the processing

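Most counts of called targets kept within 1.5 times of those reported under the settings tried. With each array centred on its median, 2 targets rose under DAPT, 6 under TAE226 and 1 under PP2, 1 fell under U0126, and 7 were called between U0126 and TAE226. Quantile normalization and the replicate block each left 1 target lower under U0126. With the mean over all probe sets of a gene, 3 fell under DAPT, 1 under U0126 and 0 under TAE226. Preferring probe sets specific by their name left 0 lower under TAE226. Single values turned for Perp under TAE226 with centring (−0.05, adjusted p = 0.741) and for Plk2 under PP2 with the mean over probe sets (0.27, adjusted p = 0.647). Of the 60 values of the 15 targets given by array, centring ended 7 calls and added 5, the mean over probe sets ended 7 and added 3, and dropping the filter or the intensity trend changed 0. The causes were not tested.

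With single arrays left out, the targets called higher numbered 5 to 7 under DAPT, 11 to 13 under U0126, 13 to 15 under TAE226 and 2 to 4 under PP2. Those called lower numbered 4 to 7, 0 to 2, 0 to 1 and 8 to 10 in the same order. The PP2 count of 4 higher became 2 without vehicle replicate 1 or 2 or PP2 replicate 1 or 2, and without vehicle replicate 3 the U0126 count of lower targets became 2. Between inhibitors, the calls numbered 11 to 16 for DAPT and U0126, 15 to 17 for DAPT and TAE226, 12 to 18 for DAPT and PP2, 9 to 14 for U0126 and TAE226, 16 to 18 for U0126 and PP2 and 19 to 20 for TAE226 and PP2. The F-test called 23 to 26. Deviations from the group means correlated between same-numbered arrays of different groups with r from −0.24 to 0.20 (30 pairs, median 0.01, 6 over 0.1). This covers only pairs by label number, and a batch in another order was not tested. With the replicate block the 15 targets given by array moved past the threshold in 2 of 60 values, Apaf1 under U0126 (−0.20, adjusted p = 0.0449) and Btg2 under DAPT (0.25, adjusted p = 0.0297), and none was lost. Signals near the array median, as for Plk3 and Tnfrsf10b, limit what can be read of low levels.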
